A study of Mus musculus with 2 samples.

Results

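*Pi16*, *Dpt*, *Ly6a*, *Ly6c1*, *Cd34*, *Dpp4*, *Sema3c* and *Cd55* are genes used to mark adventitial fibroblast progenitors, and they were chosen here by symbol from a given list. All 8 are in both gene lists of the data, among 27514 genes that the lists share (31053 are listed at E15.5 and 27998 at E17.5). Adventitial fibroblasts lie in the outer sleeve of vessels and in the loose connective tissue around organs and muscles. Across many tissues they form a fibroblast state with surface CD34, Sca-1 and often DPP4, and such cells can give rise to more specialised fibroblasts and to preadipocytes. In the skull, loose connective tissue covers the bones and sutures on the outer, ectocranial side.

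The genes were measured in single cells of the coronal suture of wildtype C57/BL6 mouse embryos (C57BL/6J per the study's reporting summary) at E15.5 and E17.5, captured with 10x Genomics 3′ v2 reagents. The E15.5 cells came from 10 pooled sutures, treated with collagenase II and dispase, and dead cells were then taken out with a kit. The E17.5 cells came from 16 sutures of 2 litters, handled in 3 batches of 10, 3 and 3 sutures, treated with collagenase IV and sorted by FACS. Each stage is 1 deposited matrix of unique molecular identifier (UMI) counts, called a library here, so stage, enzyme, sorting and embryos cannot be told apart and no test between stages was possible. Barcodes at E17.5 carry a suffix from 1 to 3, and no label says which batch a suffix stands for.

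The authors' cell table gives 15 cluster values to osteogenic and mesenchymal cells: ectocranial (EC1 to EC4), meningeal (MG1 to MG4), osteogenic (OG1 to OG4), proliferating osteogenic (PO1 and PO2) and ligament-like (LIG). The 5335 labelled cells at E15.5 held 48607817 UMIs (median 8510 per cell), and the 6830 at E17.5 held 92585034 (median 12302). EC1 had 330 and 295 cells in the E15.5 and E17.5 libraries, EC2 had 925 and 608, and EC3 had 1185 and 194. At E15.5 the UMIs per cell of the matrix were 0.74 of those in the authors' table at the median (Pearson r 0.997 over cells), and at E17.5 they were equal. Whether the labels at E15.5 were made from this very matrix is not stated. The E15.5 library shared 5, 19 and 18 cell barcodes with suffixes 1, 2 and 3. Suffixes shared 7 barcodes (1 and 2), 5 (1 and 3) and 13 (2 and 3).

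A level is given as UMIs of the gene per 1000000 UMIs of all labelled cells of a cluster (CPM), with an exact Poisson interval at 95% in brackets. All intervals here cover counting error only, and values of the 3 suffixes at E17.5 often differed by more. Reads were taken from the 3′ end of transcripts, so levels are compared between clusters and not between genes. The clusters were made by the authors from the same cells, so a level that is high in a cluster is a description.

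The secreted and matrix members were *Pi16*, which encodes a secreted protein of the CAP family with a peptidase inhibitor name, and *Dpt*, which encodes dermatopontin, a small matrix protein that binds collagen and decorin. *Pi16* (ENSMUSG00000024011, chr17:29317680-29330593, plus strand, GRCm38) had 14397 UMIs in the labelled E15.5 cells and 17555 in those of E17.5. Its level in EC2 was 951 CPM (931–971) at E15.5 and 1563 (1535–1590) at E17.5. It stood at 563 and 482 CPM in EC1, and at 243 and 783 in EC3. EC2 was thus highest in both libraries, while EC1 and EC3 changed places between them. EC4 came next at E15.5 with 159 CPM, and MG3 came next at E17.5 with 94.1. The median over the 12 clusters outside EC1, EC2 and EC3 was 32.5 CPM at E15.5 against 26.8 at E17.5, close to the level in unlabelled cells with myeloid markers, at 34.5 and 36.2 CPM. In the 12 clusters, apart from EC4 and, at E17.5, MG3, *Pi16* was read as background, since myeloid cells should lack it.

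*Dpt* (ENSMUSG00000026574, chr1:164796644-164824266, plus strand) had 14220 UMIs in the labelled E15.5 cells and 9428 in those of E17.5. Its level at E15.5 was 549.5 CPM in EC2, 519 in EC3 and 428 in EC1, so these clusters stood close to each other (EC2 over EC3, 1.06-fold, 1.02–1.1). At E17.5 EC2 stood apart, with 825 CPM against 316 in EC3 and 238 in EC1. *Dpt* was also present in osteogenic clusters at E15.5, with 199 CPM in OG2, 195 in PO1 and 171 in PO2, where myeloid marker cells had 32.6. At E17.5 the same clusters had 16.5, 25.3 and 37 CPM, and the myeloid marker cells had 13.3. In OG2 the E17.5 level was 0.083 of the E15.5 level (0.0684–0.0999), and each suffix gave a low ratio (0.104, 0.0941 and 0.0629). The cells under the OG2 label also differed in other genes between the libraries. *Sp7* was at 4.14 CPM in OG2 at E15.5 and 172 at E17.5, *Runx2* at 30.7 and 116, and *Lef1* at 73.4 and 11.6. The part of this difference in the *Dpt* values was not tested.

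The surface markers of the Ly6 family were *Ly6a*, which encodes Sca-1, and *Ly6c1*, which encodes Ly6C1, both small proteins held in the membrane by a lipid anchor. They lie near each other at chr15:74994877-74998031 (*Ly6a*, ENSMUSG00000075602) and chr15:75044018-75048830 (*Ly6c1*, ENSMUSG00000079018), both on the minus strand. *Ly6a* in EC2 was at 1053 CPM (1032–1074) at E15.5 and 1707 (1679–1736) at E17.5. In EC1 it was at 598 and 509 CPM, and in EC3 at 391 and 1014. EC2 was highest in both libraries, and EC3 rose above EC1 at E17.5, as it did for *Pi16*. EC4 was the next cluster for *Ly6a* in both libraries, at 265 and 140.2 CPM, and the median of the 12 clusters was 33.1 and 18.2.

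*Ly6c1* had 2526 labelled UMIs at E15.5 and 2638 at E17.5. Its level in EC2 was 152 CPM (144–160.4) and 241 (230.0–252), in EC1 92 and 59.3, and in EC3 59 and 138. The 4 highest clusters came in the same order as for *Ly6a* in each library. Of the 451 words of 50 bases in the last 500 bases of the *Ly6c1* transcript, 90 (20%) are also in *Ly6c2*. For *Ly6a* this was 20 words (4.43%), shared with *Ly6c2* or I830127L07Rik, and for *Pi16*, *Dpt*, *Cd34*, *Dpp4*, *Sema3c* and *Cd55* it was 0. *Ly6c2* itself had 4 labelled UMIs at E15.5 and 14 at E17.5.

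*Cd34* encodes a sialomucin of the cell surface found on fibroblast progenitors, endothelial cells and blood progenitors. It lies at chr1:194938819-194961279 on the plus strand (ENSMUSG00000016494). Its level in EC2 was 529 CPM (514–544) at E15.5 and 799 (779.8–819) at E17.5. At E15.5 EC1 (375 CPM) and EC3 (363) did not differ beyond counting error (1.03-fold, 0.967–1.1), and EC4 followed at 319. At E17.5 EC3 was at 612 CPM, and MG3 (330.3) and MG2 (303) stood above EC1 (282). *Cd34* was thus spread more widely than *Pi16* or *Ly6a*: EC1, EC2 and EC3 held 69.9% of its labelled UMIs at E15.5 and 50.3% at E17.5.

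*Dpp4* encodes dipeptidyl peptidase 4, a surface enzyme that trims peptides such as incretins and chemokines. It lies at chr2:62330073-62412231 on the minus strand (ENSMUSG00000035000). At E15.5 it was at 240.2 CPM (230.3–250.4) in EC2, 236 (227–245) in EC3 and 193 (178–209) in EC1, and EC2 and EC3 did not differ beyond counting error (1.02-fold, 0.962–1.08). At E17.5 it was at 221 CPM (210.3–231) in EC2, 109.7 (95.5–125) in EC3 and 57.7 (48.7–67.9) in EC1. *Dpp4* in EC2 was thus nearly level between the libraries, and lower in EC1 and EC3 at E17.5. EC1, EC2 and EC3 held 91.7% of its labelled UMIs at E15.5 and 91.2% at E17.5. These clusters held a smaller part of all labelled UMIs at E17.5. The EC2 ratio of *Dpp4* to cells outside them was 12.7 and 86.2.

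*Sema3c* encodes a secreted semaphorin that binds neuropilins and plexins. It lies at chr5:17574281-17730268 on the plus strand (ENSMUSG00000028780). Its EC2 level was 836 CPM (817–855) at E15.5 and 618 (601–636) at E17.5. In EC3 it was 636 and 466 CPM, and in EC1 609 and 203. EC4 had 504 and 239.7 CPM, and the later value was above EC1. *Sema3c* was also present in MG3 (388 CPM) and LIG (331) at E15.5. EC1, EC2 and EC3 held 73.1% of its labelled UMIs at E15.5 and 52.8% at E17.5. These clusters held a smaller part of all labelled UMIs at E17.5. The EC2 ratio of *Sema3c* to cells outside them was 3.55 at E15.5 and 8.73 at E17.5.

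*Cd55* encodes decay-accelerating factor, a membrane protein that breaks up complement convertases on the cell surface. It lies at chr1:130439027-130462744 on the minus strand (ENSMUSG00000026399). Its EC2 level was 255 CPM (245–266) at E15.5 and 267 (255–278) at E17.5. In EC1 it was at 159 and 64.8 CPM, and in EC3 at 148 and 112. At E15.5 EC1 and EC3 did not differ beyond counting error (1.07-fold, 0.964–1.18). The neighbouring gene *Cd55b* had 4 labelled UMIs at E15.5 and 0 at E17.5, with an upper bound of 0.464 CPM in EC2.

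**Figure D1:**
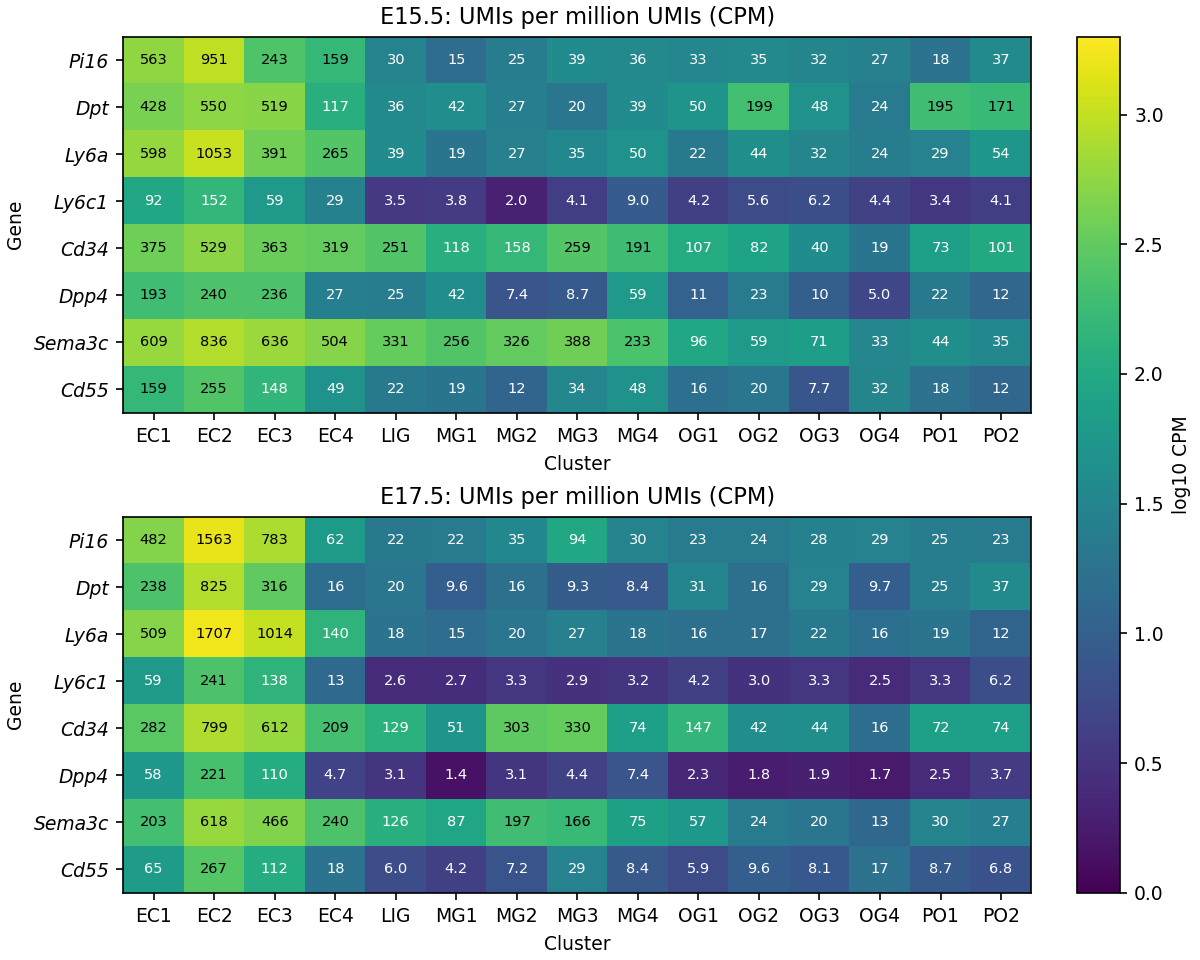
Levels of the 8 genes in the 15 clusters of the E15.5 and E17.5 libraries, as a heatmap with log colour scale and the CPM printed in each field. EC2 was the highest cluster for 8 of 8 genes in both libraries, with *Pi16* at 951 CPM in the earlier library and 1563 in the later.

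EC2 was the highest of the 15 clusters for all 8 members in both libraries with suffixes pooled. In suffix 1 alone *Ly6c1* was at 312 CPM (255–377) in EC3 and 275 (254–297) in EC2, with overlapping intervals. EC1, EC2 and EC3 were the 3 highest clusters for 8 members at E15.5 and for 6 at E17.5, where *Cd34* and *Sema3c* were the exceptions. Further down the order the clusters often could not be told apart. Between neighbours in the order, 8 (*Cd34*) to 12 (*Dpp4* and *Cd55*) of 14 pairs of intervals overlapped at E15.5, and 5 (*Sema3c*) to 11 (*Ly6c1* and *Dpp4*) at E17.5.

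Each cluster was then compared with all other labelled cells of its library, which asks how far the members set it apart. *Pi16* in EC2 was above these cells by a ratio of 6.64 (6.42–6.87) at E15.5 and by one of 25.8 at E17.5. The ratio for *Dpt* was 2.36 at E15.5 and 24.4 at E17.5. For *Dpp4* it was 2.63 and 32.9. Suffix 1 was lower than suffixes 2 and 3 at E17.5 for all 8 members, with 12.9, 31.7 and 32.6 for *Pi16*, 12.6, 34.1 and 36.5 for *Ly6a*, 13.1, 35.7 and 36.8 for *Ly6c1*, 14.3, 28.1 and 28.1 for *Dpt*, 18.5, 39 and 38 for *Dpp4*, and 10.7, 24 and 22.2 for *Cd55*. The median over the 8 members was 3.16 at E15.5 and 25.1 at E17.5, against 0.945 and 0.964 over all genes tested. The reference differs between the libraries, since EC1 and EC3 give it 330 and 1185 cells in the earlier and 295 and 194 in the later. Against cells outside EC1, EC2 and EC3 the EC2 ratios were 18.7 and 52.7 for *Pi16*, 6.17 and 40.3 for *Dpt*, 12.7 and 86.2 for *Dpp4*, and 3.17 and 7.85 for *Cd34*. For *Dpp4* the larger ratio came with a lower reference, at 18.9 and 2.56 CPM, which is near the level in myeloid marker cells (15.1 and 3.44), while EC2 itself was nearly level. *Cd34* (2.24 and 6.71) and *Sema3c* (2.24 and 7.36) had the lowest ratios at E17.5, and *Ly6a* (5.28 and 27.4), *Ly6c1* (5.34 and 28.1) and *Cd55* (3.69 and 19.5) lay nearer to *Pi16* at E17.5. At least 2-fold above the other labelled cells in both libraries were 8 of 8 members in EC2, where 295 of 12150 genes (2.43%) passed. In EC1 it was 1 of 8, *Pi16*, where 83 genes (0.683%) passed, and in EC3 it was 2 of 8, *Dpt* and *Dpp4*, where 161 (1.33%) passed. The EC1 and EC3 counts rest on the reference, which contains EC2: against cells outside EC1, EC2 and EC3, 8 of 8 members passed in EC1 (2.58% of 12150 genes), in EC2 (4.88%) and in EC3 (3.96%). The members were chosen with earlier results of these data known, and the paper names *Pi16*, *Dpt* and *Ly6a* as markers of EC1 to EC3. These counts are thus a description. *Pi16* in EC1 was near the limit, at 2.03-fold at E15.5. *Pi16* in EC3 went in opposite directions, with a ratio of 0.782 (0.749–0.815) at E15.5 but 4.43 at E17.5. Against cells outside EC1, EC2 and EC3 it was 4.79 at E15.5 and 26.4 at E17.5. The low E15.5 ratio thus rested on EC1 and EC2 in the reference.

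The libraries were next set side by side within EC2, the cluster where all members are highest. *Pi16* was 1.64-fold higher at E17.5 (1.6–1.69), *Ly6a* 1.62-fold, *Ly6c1* 1.58-fold, *Cd34* 1.51-fold and *Dpt* 1.5-fold. *Sema3c* was at 0.74 of its E15.5 level (0.714–0.767) and *Dpp4* at 0.918 (0.862–0.978), which was above 1 in cells thinned to 3000 UMIs (1.04) and by mean UMIs per cell (1.21). The *Cd55* levels did not differ beyond counting error (1.04, 0.984–1.11). So 5 members were higher and *Sema3c* was lower, while the direction for *Dpp4* depended on the processing and *Cd55* was level. Summed markers of other cell types also moved within EC2, from 133 to 275 CPM for 5 mural markers and from 36.2 to 74.7 for 6 myeloid. The sum of 5 chondrocyte markers went from 290.2 to 61.1 (*Col2a1*, the most abundant, from 132 to 32.3). That of 5 mast cell markers went from 92.9 to 30.8 (mostly *Cma1*, 65.4 and 16.7). The part of these markers in the member values was not tested. None of the 8 was at least 2-fold higher or lower, where 298 of 8449 genes (3.53%) were higher and 295 (3.49%) lower. The median ratio was 1.51 over the members and 1.05 over all genes. By suffix the *Pi16* ratio was 2.07, 1.45 and 1.49, and the *Sema3c* ratio 0.848, 0.673 and 0.716, so all suffixes gave 1 direction for each, and those of *Cd55* did not (0.894, 1.09 and 1.12).

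The same comparison within EC1 and EC3 was added after their values were seen. In EC1 all 8 members were lower at E17.5, from 0.299 (*Dpp4*, 0.248–0.359) to 0.855 (*Pi16*, 0.794–0.92). The cells under the EC1 label differed between the libraries in osteogenic genes too: *Sp7* was at 2.93 and 109.5 CPM in EC1 (0.543 and 12 in EC2) and *Runx2* at 9.75 and 81.9 (4.99 and 9.81 in EC2). In EC1, summed chondrocyte markers also fell from 389.8 to 88.2 CPM and skeletal muscle markers from 94.9 to 7.12. Mast cell markers went from 72.2 to 32.4 and myeloid markers from 30.6 to 70.4, while mural markers were nearly level (98.8 and 96.9). The part of these differences in the EC1 values of the members, here and per cell, was not tested. At least 2-fold lower were 3 of 8, *Dpp4*, *Sema3c* (0.334) and *Cd55* (0.409), where 246 of 5009 genes (4.91%) passed, and none was 2-fold higher, where 153 (3.05%) passed. Of the 3 called lower, *Sema3c* missed the limit in suffix 1 (0.511) and *Cd55* in suffix 2 (0.507). The direction in EC1 depended on the suffix for *Pi16* (1.36, 0.699 and 0.459), *Ly6a* (1.24, 0.684 and 0.564), *Ly6c1* (1.04, 0.529 and 0.335) and *Cd34* (1.13, 0.586 and 0.477). In EC3 the members split. *Pi16* (3.22-fold, 3.02–3.43), *Ly6a* (2.59-fold) and *Ly6c1* (2.33-fold) were at least 2-fold higher at E17.5, as were 243 of 4488 genes (5.41%), and *Cd34* was 1.69-fold higher. Under the EC3 label *Sp7* went from 2.24 to 29.5 CPM and *Runx2* from 4.76 to 34.5. The 5 mural markers went from 92.3 to 276 summed (*Kcnj8* from 55.1 to 225, *Higd1b* at 0 in both). Summed chondrocyte markers went from 306 to 84.3, mast cell markers from 96.3 to 32.5 and myeloid markers from 31 to 68. The part of these differences in the EC3 values was not tested. *Dpp4* was at 0.465 of its E15.5 level (0.403–0.535), below the 2-fold limit that 164 genes (3.65%) passed, but at 0.512 in suffix 1, while *Dpt* was at 0.61, *Sema3c* at 0.732 and *Cd55* at 0.756. *Ly6c1* in EC3 was higher in each suffix (5.28, 1.58 and 1.9), and most in suffix 1.

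**Figure D2:**
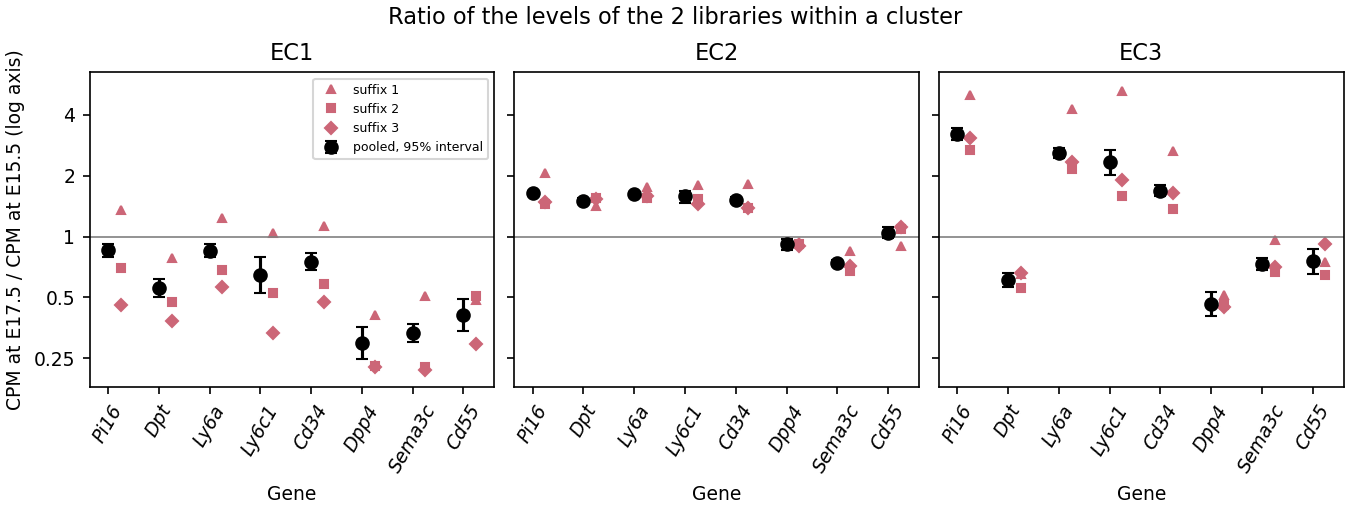
Level at E17.5 over level at E15.5 of each gene within EC1, EC2 and EC3 (log scale), with 95% intervals and a value for each suffix at E17.5. Pooled values of *Pi16*, *Ly6a* and *Ly6c1* lay below 1 in EC1, where suffix 1 lay above 1, and at 2.33 or above in EC3.

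Detection of several members in the same cell was counted after each cell was thinned at random to 3000 UMIs, which puts cells on equal depth. At E15.5, 28 cells of EC1, 19 of EC2 and 25 of EC3 were too shallow and were left out, and none at E17.5. The share of EC2 cells with UMIs of at least 4 of the 8 members was 94.7% at E15.5 (Clopper-Pearson 95% interval 93–96.1, median depth before thinning 9732) and 98.8% at E17.5 (97.6–99.5, median depth 12602). In OG4, an osteogenic cluster taken as background, it was 1.7% (3 of 176 cells, median depth 7352) and 0.19% (median depth 19349). Unlabelled cells with myeloid markers gave 2.03% and 0.286% (median depths 9413 and 9932), and those with chondrocyte markers 3.77% and 0.761% (10778 and 11173). OG4 is not at background for *Cd55*, which was at 32.1 and 17.1 CPM there, against 16.6 and 12.8 in myeloid marker cells. EC2 was far above all 3 kinds of background cells in both libraries. Without thinning the EC2 shares were 99.7% and 100.0%, and all 8 members were detected in 45.4% and 72% of EC2 cells.

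In EC3 the share was 59.1% (56.2–62) at E15.5 and 72.2% (65.3–78.3) at E17.5. Without thinning it was 85.6% and 80.9%, so its direction between libraries depended on the thinning. In EC1 the share was 67.5% (62–72.8) at E15.5 but 24.4% (19.6–29.7) at E17.5, while unthinned cells gave 71.8% and 29.8%. The median depths were 9143 and 6767 in EC1, and 8606 and 9244 in EC3. Of the EC1 cells at E17.5, 117 of 295 (39.7%) had no member UMI after thinning, against 8.28% at E15.5. In EC3 the share with no member UMI was 1.81% at E15.5 and 11.9% at E17.5. *Sp7* had a UMI in 2.73% of unthinned EC1 cells at E15.5 but in 39.7% at E17.5. EC2 gave 0.541% and 14%, and LIG gave 1.01% and 18.5%. How much of this detection is background was not tested. Whether the EC1 cells with *Sp7* are those without members was not tested either. By suffix the E17.5 share with at least 4 members was 37.5%, 12.7% and 16.7% in EC1, and 88.6%, 64.5% and 74.2% in EC3. EC4 gave 20.3% at E15.5 and 5.95% at E17.5.

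**Figure D3:**
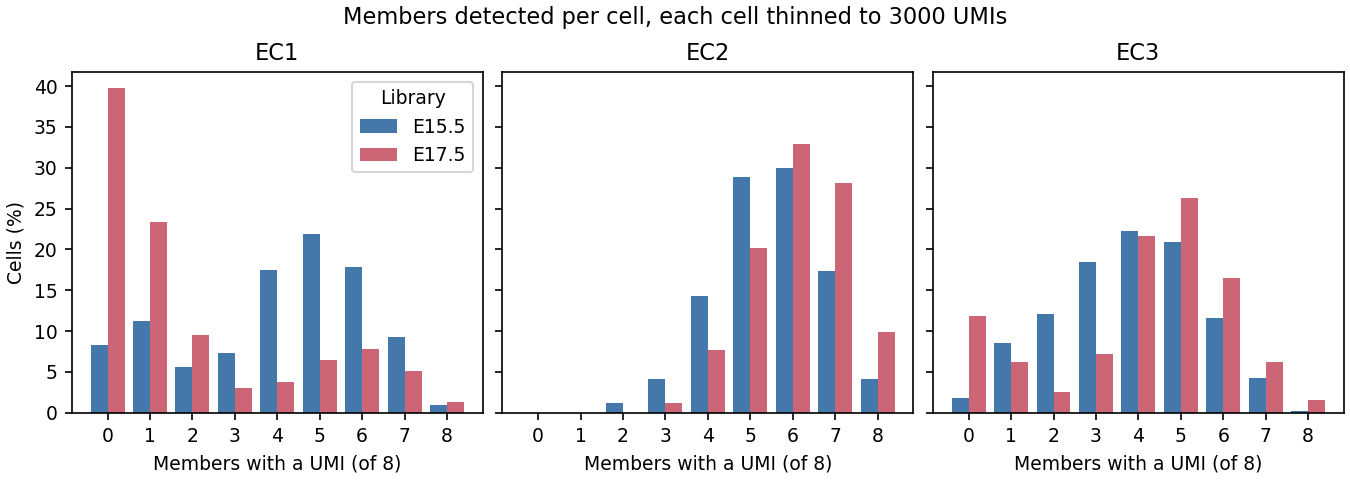
Share of cells (%) by the number of the 8 genes with a UMI after thinning to 3000 UMIs, in EC1, EC2 and EC3 of both libraries. EC2 cells centred on 6 genes in both libraries, and 39.7% of EC1 cells at E17.5 had none.

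Single members were also counted per cell. *Pi16* was detected after thinning in 87.7% and 96.2% of EC2 cells, where OG4 gave 3.41% and 7.78%. Without thinning *Pi16* was in 8.95% of OG4 cells at E15.5 and in 38.1% at E17.5, at the depths given above, and such shares were read as background. *Ly6a* was detected in 87.6% and 98% of thinned EC2 cells (5.68% and 5.12% in OG4). *Dpt* was in 72.5% and 87.3% of EC2 cells (4.55% and 3.23% in OG4). Detection was lower for *Ly6c1*, in 32.5% and 48.2% of EC2 cells (1.14% and 0.949% in OG4), for *Cd55*, in 50.9% and 54.4% (7.95% and 6.07%), and for *Dpp4*, in 48.1% and 50% (1.7% in OG4 at E15.5, and 0 of 527 cells at E17.5, with an upper bound of 0.698%). In EC1, *Pi16* was in 58.3% of thinned cells at E15.5 but in 32.2% at E17.5, and *Dpp4* in 40.1% but then 11.2%.

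Pairs of members were compared with the product of their single shares, over 28 pairs in thinned cells. In EC2 the median of observed over product was 1 in both libraries. High single shares hold it near 1 for many pairs there, but not for pairs of *Ly6c1*, *Dpp4* and *Cd55*, which lay between 0.989 and 1.1. In EC1 the median was 1.23 at E15.5 and 2.42 at E17.5, where values ran from 1.83 for *Cd34* with *Sema3c* to 4.33 for *Ly6c1* with *Dpp4*. At E17.5 the binomial interval of the observed share lay above the product for 28 of 28 pairs. The product was taken as fixed, so its own counting error is left out. In EC3 the median was 1.09 and 1.2, and the interval of the observed share lay above the product for 13 and 8 pairs.

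Unlabelled cells were looked at with marker lists, since *Cd34* and the Ly6 genes also belong to vessels. *Cd34* was at 332 CPM (285–386) in the 47 cells of this kind with endothelial markers at E15.5, against 639 in 122 at E17.5. *Ly6c1* was at 59.6 and 255 CPM, and *Ly6a* at 38.4 and 108. Myeloid marker cells had 5.9 and 4.01 CPM of *Ly6c1* and 39.6 and 19 of *Ly6a*. *Ly6a* at E15.5 was thus no higher in endothelial than in myeloid marker cells. *Pi16* (23.1 and 21.5 CPM) and *Dpt* (26.9 and 10.5) were no higher in endothelial than in myeloid marker cells in either library. In EC2, 8 of 8 endothelial markers had UMIs but they summed to 31.5 and 23.4 CPM, with *Pecam1* (11.5) the most abundant at E15.5 and *Egfl7* (7.3) at E17.5. Of 5 mural markers 4 had UMIs in EC2 at E15.5 (*Higd1b* was at 0) and 5 at E17.5, mostly *Kcnj8* (93.8 and 227 CPM). *Cd55* in mast marker cells was at 69.8 and 69 CPM. *Sema3c* in chondrocyte marker cells was at 130.5 and 56.5 CPM.

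Further gene lists place the members among their relatives, each judged in EC2 against the other labelled cells by the 2-fold limit in both libraries. Of 28 other adventitial fibroblast genes 19 were higher and 1 was lower (*Smpd3*), where 2.43% of all genes were higher and 663 (5.46%) lower. No member was lower. The list, also chosen with earlier results of these data known, had median ratios of 2.48 at E15.5 and 8.22 at E17.5. *Clec3b*, which encodes tetranectin, had EC2 levels of 1400 and 1748 CPM, with ratios of 3.1 and 28.5. *Efhd1* had 228 and 212 CPM (3.38 and 33), and *Emilin2*, a matrix glycoprotein gene, 288 and 548 (3.85 and 24.4). *Pdgfra*, a receptor gene of many fibroblasts, had 52.9 and 64.5 CPM (0.7 and 1.25), and *Smpd3* 4.45 and 11.7 (0.0578 and 0.0708).

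Other fibroblast and adipose lists are short, so counts of 0 higher are near the 2.43% of all genes. Of 8 genes of the Col15a1 type of fibroblast none was higher or lower, with median ratios of 0.676 and 1.05. *Lpl* had 45.4 and 163 CPM in EC2 (ratios 1.78 and 19.1), *Penk* 13.4 and 92.1 (0.134 and 3.48) and *Hspg2* 76.8 and 162 (1.3 and 1.87), and *Col4a2* (0.477 and 0.528) and *Sparcl1* (0.166 and 0.504) were below the other cells without passing the limit in both. Of 8 committed preadipocyte and adipocyte genes 5 had enough UMIs, and 0 were higher and 1 lower (*Icam1*, 0.392 and 0.343), with medians of 0.365 and 1.07. *Dlk1* had 6117 and 6286 CPM in EC2 (1.72 and 13.4), and the remaining ratios were 0.349 and 1.42 for *Cd36*, 0.229 and 1.07 for *Fabp4*, and 0.365 and 0.685 for *Cebpa*. Of 6 genes of F3-positive adipose regulatory cells 5 had enough UMIs, and 0 were higher and 2 lower (*F3*, 0.238 and 0.178, and *Clec11a*, 0.254 and 0.199), with medians of 0.529 and 0.276. *Fmo2* (1.35 and 8.28) and *Meox2* (1.25 and 3.54) were above the other cells, and *Gdf10* (0.529 and 0.276) below them.

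Of 6 receptors of *Sema3c*, 0 were higher in EC2 (2.43% of all genes) and 3 were lower (5.46% of all genes): *Nrp2*, *Plxna2* (0.104 and 0.147) and *Plxna4* (0.0458 and 0.0951). The medians were 0.363 and 0.632. *Nrp1* had EC2 levels of 38.2 and 61 CPM (0.5 and 1.07), *Plxna1* ratios of 1.13 and 1.33, and *Plxnd1* of 1.17 and 1.32. *Nrp2* is named after its values were seen. Among complement genes beside *Cd55*, *Cd59a*, which encodes an inhibitor of the membrane attack complex, was lower in EC2 by the limit (0.343 and 0.292). *Serping1*, which encodes the C1 inhibitor, had ratios of 1.45 and 2.45, *C1s1* of 2.53 and 1.97, and *C1ra* of 1.83 and 1.45. In the Ly6 family, which includes 2 members, 5 of 16 genes had enough UMIs, with medians of 2.53 and 5.51. *Ly6a*, *Ly6c1* and *Ly6k* (2.53 and 5.51) were higher and *Ly6h* (0.467 and 0.271) lower, while *Ly6e* (1.66 and 4.45) passed the limit only at E17.5.

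Likeness was measured as Pearson's r of log levels over 30 points, the 15 clusters of each library, for 9863 genes, as a description. *Pi16* was nearest to *Ly6a* (0.961), *Ly6c1* (0.96) and *Tnxb* (0.948), and *Ly6a* to *Ly6c1* (0.971), *Pi16* and *Emilin2* (0.943). *Ly6c1* was nearest to *Ly6a*, *Pi16* and *Emilin2* (0.956). These 3 members thus had each other as their closest genes. *Dpp4* was nearest to *Efhd1* (0.967), *Clec3b* (0.963) and *Adamts16* (0.959), and *Cd55* to *Tek* (0.923), *Clec3b* (0.909) and *Efhd1* (0.908). *Dpt* was nearest to *Ahr* (0.928), *Mfhas1* (0.902) and *Lpl* (0.899). *Cd34* was nearest to *Gpc3* (0.949), *Axl* (0.917) and *Fstl1* (0.899), and *Sema3c* to *Plagl1* (0.944), *Ahnak2* (0.942) and *Phactr2* (0.937). Among the members the lowest r was 0.492, between *Dpt* and *Sema3c*. Levels of the same library and cluster share depth and free RNA. Most of these nearest genes were not the same with Spearman's correlation.

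Since all members were highest in EC2, the 250 bases upstream of their RefSeq starts (GRCm38.p6) were searched on both strands for 4 motifs, and 7 of the 8 members matched an entry (not *Ly6a*). The TATA motif TATAAA was in the windows of *Dpp4* and *Ly6c1*, where 12.4% of all 32851 windows hold it, but not in the other *Ly6c1* entry. The GC box core GGGCGG was in those of *Cd55* and *Sema3c* (32.7% of all windows). The E-box CAGCTG was in those of *Dpt* and *Ly6c1* (13%), and the E-box CACGTG was in none (6.02%). No motif was in more than 2 of the members. All 250 bases of the *Sema3c* and *Pi16* windows lie in annotated exons. The windows of *Dpp4*, *Ly6c1* and *Cd55* are printed because they hold these motifs and lie outside annotated exons. They run 5′ to 3′ on the minus strand, with the motifs in capitals, and in *Cd55* the GC box core is read on the other strand as CCGCCC. They are from RefSeq at chr2:62412232-62412481 (*Dpp4*), chr15:75048838-75049087 (*Ly6c1*, its first entry) and chr1:130462745-130462994 (*Cd55*).
Dpp4: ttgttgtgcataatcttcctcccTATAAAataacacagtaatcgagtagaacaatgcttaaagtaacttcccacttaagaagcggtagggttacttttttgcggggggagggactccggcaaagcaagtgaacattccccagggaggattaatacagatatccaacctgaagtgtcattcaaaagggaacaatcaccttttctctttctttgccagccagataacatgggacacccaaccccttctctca
Ly6c1: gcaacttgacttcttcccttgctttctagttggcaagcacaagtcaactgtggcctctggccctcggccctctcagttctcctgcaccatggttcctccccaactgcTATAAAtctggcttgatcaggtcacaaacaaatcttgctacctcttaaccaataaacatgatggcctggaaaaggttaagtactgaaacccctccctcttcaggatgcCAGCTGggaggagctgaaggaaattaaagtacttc
Cd55: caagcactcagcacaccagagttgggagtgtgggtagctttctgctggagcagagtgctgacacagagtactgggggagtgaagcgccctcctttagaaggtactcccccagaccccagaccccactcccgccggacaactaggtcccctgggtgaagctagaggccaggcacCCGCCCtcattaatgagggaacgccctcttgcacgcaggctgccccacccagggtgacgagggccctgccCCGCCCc
The share of G and C was 43.6% for *Dpp4*, 48.4% for *Ly6c1* and 64% for *Cd55*, where the median window had 52.4%.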

How the data were processed

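The authors deposited UMI counts per gene and barcode for each stage, made with Cell Ranger and not normalised, and a cell table with cluster values. Cell Ranger 3.1.0 is named in the E15.5 matrix header, whereas the paper states an older version and the sample notes none, beside FastQC 0.11.7, MultiQC 0.9 and Seurat 3.2.0. Computation was in Python 3.11.15 with pandas 2.3.3, numpy 2.4.6, matplotlib 3.10.9 and scipy 1.17.1, and GENCODE M21 gave positions. All labelled cells in the matrices were used, and 5 of the 5340 cells labelled at E15.5 are not in the matrix. Unlabelled barcodes needed at least 1000 UMIs, 1000 genes, at most 7.5% mitochondrial and 3% haemoglobin UMIs, and at least 3 markers of 1 list to be counted as marker cells. No doublet caller was run, and the alternatives leave out the top 6% of UMIs of each cluster or cells with 2 or more outside markers. Genes with at least 50 labelled UMIs in each library were tested in cluster comparisons, and those with at least 50 in the cluster in stage comparisons. Likeness used genes with at least 200 labelled UMIs in each library and a pseudocount of 1 CPM on the log scale. The genes named are the 8 members, per list the 3 with the highest and the 2 with the lowest EC2 ratio at E17.5, and the 3 most alike genes per member. Counts and medians of the complement list are not reported here. The members and lists were chosen with earlier results of these data known. Alternatives were limits of 1.5-fold and 3-fold, other normalisations and references, thinning to 3000 or 5000 UMIs or with another seed, 3 or 5 members per cell, a pseudocount of 10, Spearman's correlation, a minimum of 50 UMIs, cells left out and single suffixes. The computations were tested on simulated data.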

Additional observations from a re-analysis of the deposited data

Results flagged for a closer look

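*Pi16* in EC3 moved in opposite directions in the 2 libraries when set against the other labelled cells: the ratio was 0.782 at E15.5 but 4.43 at E17.5. The difference between the libraries was not tested. The EC3 level was 243 CPM in the earlier library against 783 in the later, and the E17.5 over E15.5 ratio was 5.02, 2.69 and 3.06 in the 3 barcode suffixes. Against cells outside EC1, EC2 and EC3 the ratio was 4.79 at E15.5 and 26.4 at E17.5.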

How the results depend on the processing

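No paired analysis was possible because each stage is 1 library. Of 536 recomputed ratios, 272 stayed inside the counting interval of the reported value, 264 left it, and 0 of those at least 2-fold from 1 changed direction. Smaller ratios that crossed 1 were *Pi16* in EC3 at E15.5 (0.782, and 4.79 against cells outside EC1, EC2 and EC3), *Sema3c* in EC1 at E17.5 (1.59, and 0.99 by mean UMIs per cell), *Dpp4* between stages in EC2 (0.918, then 1.21 by mean UMIs per cell and 1.04 thinned) and *Cd55* between stages in EC2 (1.04, then 0.991 with the reduced total and 0.894 in suffix 1). The count of members at least 2-fold above the other labelled cells in both libraries was 1 in EC1. It became 6 at a limit of 1.5-fold and 0 at 3-fold, and 0 with the mean of the CPM of each cell, with mean UMIs per cell, with mitochondrial, haemoglobin and ribosomal protein genes left out of the total, without cells with 2 or more outside markers, and with suffix 1 or suffix 3 alone. In EC2 the count of 8 became 4 at 3-fold. In EC3 the count of 2 became 4 at 1.5-fold and 0 at 3-fold. Against cells outside EC1, EC2 and EC3 the count was 8 in EC1 (2.58% of all genes) and 8 in EC3 (3.96%). The count of members at least 2-fold higher at E17.5 in EC2 was 0, and became 5 at 1.5-fold, 3 with mean UMIs per cell and 1 with suffix 1 alone. Shares of cells with at least 4 members moved as follows. At E15.5, EC1 gave 73.6% thinned to 5000 UMIs, 74.8% with at least 3 members and 50% with at least 5. EC2 gave 99.7% unthinned, 99.7% at 5000, 98.8% with 3 and 80.4% with 5, and EC3 gave 85.6%, 77.9%, 77.6% and 37% in the same order. At E17.5, EC1 gave 29.8% unthinned and 37.5%, 12.7% and 16.7% in suffixes 1, 2 and 3. EC2 gave 100.0% unthinned, 100.0% at 5000, 100.0% with 3, 91.1% with 5 and 100.0% in suffix 2. EC3 gave 80.9% unthinned, 80.8% at 5000, 79.4% with 3, 50.5% with 5, 88.6% in suffix 1 and 64.5% in suffix 2. Of the 24 nearest genes, 10 were the same with Spearman's correlation. The cause was not tested for any of these. Leaving out cells with 2 or more outside markers removed 3540 of 5335 E15.5 cells and 4380 of 6830 E17.5 cells. The labelled UMIs of *Ly6c1* (2638) and *Dpp4* (2320) at E17.5 were the fewest of the members and limit the precision of their values per cluster and suffix.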
